A study of Mus musculus with 40 samples.

Results

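H3K27ac, an acetylated form of histone H3, marks active promoters and enhancers, and a region that gains the mark as a cell changes its type is usually a switched-on regulatory element. The regions described here had no H3K27ac peak in preadipocytes and had one in every library of the brown-like adipocytes made from them. They were selected on the peak calls of days 0 and 9: after the peaks of all 24 libraries had been joined wherever they overlapped by at least 1 bp, a region was kept when 6 of 6 day 9 lists and 0 of 6 day 0 lists held a peak in it. The rule found 4302 such gained regions among 169358 merged regions. The calls at days 0 and 9 are therefore a description. Those of days 3 and 6, which the rule did not use, were open to test. The comparison of strength between the genotypes at day 9 is limited. The rule chose regions on the peaks of that day, although it asked both genotypes alike.

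Preadipocytes from the inguinal white adipose tissue of C57BL/6 mice, either wild type (WT) or lacking both HMGN1 and HMGN2 (double knockout, DKO, Hmgn1-/- Hmgn2-/-), were converted in culture, and ChIP-seq was done before conversion (day 0) and 3, 6 and 9 days into it. HMGN1 and HMGN2 are small, abundant chromatin proteins that attach to nucleosomes. Both genotypes received the same differentiation medium for 4 days, with insulin, dexamethasone, IBMX, T3 and rosiglitazone, and then maintenance medium with insulin and T3 for 4 days. Each of the 8 groups had 3 libraries, which the study calls biological replicates. The labels do not say whether they came from separate mice or cultures, so p-values measure the spread between these libraries. Fat cell formation is driven by a cascade in which glucocorticoid and cAMP signals first induce C/EBP factors, which then induce PPARG, the target of rosiglitazone and the master regulator of fat cell genes. Brown and beige adipocytes, the heat-producing kinds, further use PGC-1 coactivators (Ppargc1a, Ppargc1b) and UCP1.

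The lists held between 47448 peaks (DKO day 6 replicate 3) and 115923 peaks. WT day 3 replicate 3 was the shallowest library, with 4.52 background reads per kb where the others had 8.62 to 12.9, and DKO day 0 replicate 2 had peaks with a median width of 1076 bp, against 313 to 376 bp elsewhere. As a check of the labels, every WT library (12 of 12) and no DKO library (0 of 12) had a peak in Hmgn2, whereas Hmgn1 had peaks in all 24, so the mark does not check that deletion. The cell type was checked with markers, from 5 kb upstream of a gene to its end. Of the 10 fat cell markers, Adipoq, Cidec and Retn had a peak in 0 of 6 day 0 and 6 of 6 day 9 libraries. Cfd had a peak in 0 of 6 and 5 of 6. Plin1, Fabp4, Lpl, Pparg and Cebpa had peaks in 6 of 6 on both days, and Lep in none. Of the 13 brown and beige markers, Elovl3 and Kcnk3 rose from 0 of 6 to 6 of 6, while Ucp1 and Zic1 had no peak in any of the 24 libraries. Cox8b went from 0 to 4 of 6 libraries, and the others had a peak in 1 to 6 day 0 libraries. Peaks covered 43.8 to 51.1 kb of the 9 preadipocyte markers at day 0 in WT and 43.2 to 50.9 kb at day 9. In DKO this was 40.6 to 73.3 kb and then 44.85 to 51.6 kb. Markers of macrophages and leukocytes were also acetylated, most at day 0. Peaks then covered 21.7 to 24.3 kb of the 7 genes in WT against 27.1 to 55.9 kb in DKO, without overlap. At days 3 and 6 the genotypes overlapped. At day 9 the coverage was 6.34 to 8.47 kb in WT against 9.64 to 11.6 kb in DKO. The part of these cells in the choice of regions or in any difference below was not tested.

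Sequence at the summit of the strongest gained region of each time course is shown first, because the results below turn on when these regions appear and how strong they become. Each window holds 299 bases centred on the summit of the strongest day 9 peak, 5′ to 3′ on the plus strand of GRCm38 (mm10), read from the reference genome, and capitals mark matches to the C/EBP motif TTGCNNAA, the glucocorticoid receptor motif ACANNNTGT, the AP-1 motif TGANTCA or the PPAR-RXR motif (DR1, a direct repeat). The first lies in an intron of Zbtb16, 111835 bp from its nearest transcript start, and was held by all libraries of both genotypes from day 3. The next lies 343 bp from a start of Cidec, which encodes a lipid droplet protein, and was held by both genotypes from day 6. The third lies 202 bp from a start of Acvr1c, a receptor of the TGF-β family, and was held only at day 9 by at least 2 of 3 libraries. The Capn9 intron was held by WT before DKO. The fifth lies 3392 bp from a Jagn1 start, upstream of the Cidec promoter, and was held by DKO before WT. The Zbtb16, Acvr1c and Capn9 windows hold no match. The last is the strongest gained region whose summit lay within 100 bp of the PPAR-RXR motif, and it was 9154 bp from a start of Pex5.
Zbtb16 intron, chr9:48723961-48724259: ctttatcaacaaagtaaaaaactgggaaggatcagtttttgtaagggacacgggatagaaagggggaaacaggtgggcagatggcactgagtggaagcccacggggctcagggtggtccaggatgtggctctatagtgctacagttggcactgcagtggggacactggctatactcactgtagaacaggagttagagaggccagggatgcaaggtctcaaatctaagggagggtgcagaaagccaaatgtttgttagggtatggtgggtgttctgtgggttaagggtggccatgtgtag
Cidec promoter, chr6:113435264-113435562: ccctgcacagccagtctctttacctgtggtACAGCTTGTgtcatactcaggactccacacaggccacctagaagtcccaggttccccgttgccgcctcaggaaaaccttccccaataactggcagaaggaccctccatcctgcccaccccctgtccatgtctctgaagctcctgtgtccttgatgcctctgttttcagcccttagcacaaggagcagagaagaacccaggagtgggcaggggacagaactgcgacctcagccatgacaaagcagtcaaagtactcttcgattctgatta
Acvr1c promoter, chr2:58324456-58324754: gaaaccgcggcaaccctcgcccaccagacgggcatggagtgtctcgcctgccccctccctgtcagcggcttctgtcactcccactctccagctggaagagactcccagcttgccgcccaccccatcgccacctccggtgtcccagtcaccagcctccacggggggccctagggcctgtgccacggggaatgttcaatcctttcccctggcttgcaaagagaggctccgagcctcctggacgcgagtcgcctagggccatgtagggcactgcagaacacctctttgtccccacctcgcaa
Capn9 intron, chr8:124585527-124585825: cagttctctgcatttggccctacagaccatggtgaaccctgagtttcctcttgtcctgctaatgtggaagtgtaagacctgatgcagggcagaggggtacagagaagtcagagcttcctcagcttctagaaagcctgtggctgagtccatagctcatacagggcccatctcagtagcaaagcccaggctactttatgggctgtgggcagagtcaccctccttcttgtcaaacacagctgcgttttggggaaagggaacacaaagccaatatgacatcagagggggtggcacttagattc
Jagn1 to Cidec interval, chr6:113439028-113439326: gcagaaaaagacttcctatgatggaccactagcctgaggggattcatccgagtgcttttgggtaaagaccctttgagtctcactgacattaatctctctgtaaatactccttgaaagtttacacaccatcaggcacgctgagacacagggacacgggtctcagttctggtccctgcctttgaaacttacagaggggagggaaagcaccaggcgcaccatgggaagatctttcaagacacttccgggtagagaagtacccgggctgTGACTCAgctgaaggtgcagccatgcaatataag
Pex5 interval, chr6:124424072-124424370: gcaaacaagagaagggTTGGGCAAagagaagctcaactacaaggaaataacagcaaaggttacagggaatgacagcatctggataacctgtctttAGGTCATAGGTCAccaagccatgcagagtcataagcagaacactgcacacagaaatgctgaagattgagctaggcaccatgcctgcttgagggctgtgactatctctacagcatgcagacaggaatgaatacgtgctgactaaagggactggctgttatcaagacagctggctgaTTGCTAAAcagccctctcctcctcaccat

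Gained regions lay mostly away from promoters. Of the 4302, 2241 (52.1%) had their summit in an intron, 1595 (37.1%) between genes, 298 (6.93%) within 1 kb of a transcript start and 168 (3.91%) in an exon further away. Of all merged regions 12.3% were at promoters, and of the 23471 regions that all day 0 and all day 9 lists held (maintained regions) 47.1% were. The 2187 regions lost over the same days, held by 6 of 6 day 0 and 0 of 6 day 9 lists, resembled the gained regions in place, with 8.32% at promoters and 53.0% in introns. The median distance of a gained region from the start of its gene was 30.4 kb, against 5.61 kb for maintained regions. Gained regions had a median width of 966 bp (quartiles 692 and 1422 bp), a median GC content of 45.7% and 4 CpG sites within 250 bp of the summit, where maintained regions had 2447 bp, 52.9% and 12. Members were spread over 20 chromosomes, from 0.492 per Mb on the X chromosome to 2.48 per Mb on chromosome 19, and 2136 of them (49.7%) had another gained region within 10 kb, in 865 groups of which the largest, with 18, lay at Zbtb16.

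Strength was read as the highest fold enrichment of a region's peaks in a library, the authors' ratio of reads at the summit to local background. The median over the 6 day 9 libraries ran from 3.40 to 23.7 over the gained regions, with quartiles of 5.18 and 7.42 and a median of 6.08. Maintained regions had a median of 10.2. Just outside the rule, 2599 regions held in 5 of 6 day 9 and 0 of 6 day 0 lists had a median fold of 4.91, and 1369 regions held in 6 of 6 day 9 and 1 of 6 day 0 lists had a median of 5.86. For 271 of these 1369, the day 0 peak was that of DKO day 0 replicate 2, the library with wide peaks.

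The motif of C/EBP factors, the early drivers of fat cell formation, was found on either strand within 250 bp of the summit in 1119 gained regions (26.0%), against 21.0% of all merged regions, 20.1% of lost regions and 17.9% of maintained regions. The glucocorticoid receptor motif was found in 18.2%, against 15.7%, 14.8% and 11.6%. The AP-1 motif was found in 17.1% of gained, 17.9% of all, 19.6% of lost and 15.2% of maintained regions. The CREB motif TGACGTCA, the target of cAMP signalling, was found in 0.186% of gained and 0.507% of all regions. Outside promoters the C/EBP motif stood in 26.4% of gained, 21.7% of all, 20.3% of lost and 21.3% of maintained regions. The glucocorticoid receptor motif stood there in 18.3%, 16.6%, 15.2% and 15.6%. For AP-1 the shares outside promoters were 17.4%, 19.0%, 19.9% and 21.8%, so that gained regions had the lowest. The long PPAR-RXR motif matched in 7 gained regions (0.163%), against 0.125% of all regions. These are shares of letters in a window, not of bound sites. Within 100 bp of the summit the C/EBP shares were 7.58% of gained and 7.41% of all regions. Those of the glucocorticoid receptor motif were 6.69% and 6.39%.

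Regions were assigned to the protein-coding gene they lay in, or else to that with the nearest start, which is a position and not a measured target. The 4302 regions fell to 2254 genes, 10.3% of the 21911 protein-coding genes of the annotation. Of these, 1270 had 1 gained region and 142 had 5 or more. Zbtb16, a zinc finger factor strongly induced by glucocorticoids, had the most: 31 gained regions of the 37 regions assigned to it that all day 9 lists held, 30 of them inside the gene. Their fold ran from 3.77 to 23.7. Dlc1 had 15, Arl4a, a small GTPase, 14, and Nfia, a nuclear factor I gene that promotes the brown fat programme, and Fkbp5, a glucocorticoid-induced chaperone partner, 12 each. Ror1, a Wnt receptor, had 11. Among the genes with 10 were Fabp12, Cxcl13 and Bmper. Fabp12 neighbours Fabp4 in the cluster of fatty acid-binding proteins.

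Of the fat cell markers, 9 of 10 had a gained region: Pparg had 8, Lpl, the lipoprotein lipase, 5, Plin1, the perilipin of lipid droplets, 4, and Cidec 3. Of 27 PPAR, C/EBP and other adipogenic factors, 19 had 96 gained regions between them, among them Zbtb16, Nfia, Pparg and Nfib. Of 24 genes of insulin signalling and glucose uptake, 15 had one, among them Tbc1d4 (8) and Pik3r1 (7), and Slc2a4, the insulin-regulated glucose transporter, had 2. Of 22 genes of fatty acid and triglyceride synthesis, 11 had one, led by Gpat3 (7), Lpin1 (5) and Scd1 (5). Of 31 genes of fatty acid oxidation, 12 had one, of 20 glucocorticoid targets 10, of 19 genes of fatty acid uptake and binding 5, and of 19 lipolysis and adrenergic genes 8. For lipid droplet genes the number was 7 of 19, for adipokines and secreted factors 9 of 24, and for cAMP targets 4 of 16. Of 29 brown and beige thermogenic genes 6 had one, led by Ppargc1b (7) and Ppargc1a (6), and of the 13 brown or beige markers 4 did. The respiratory chain and TCA cycle had 3 of 33 genes with a gained region, Mpc1, Cs and Slc25a1, although 30 of the 33 had some region that all day 9 lists held.

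Lists of other cells are read against the 10.3% of all protein-coding genes with a gained region. Of 24 preadipocyte and stromal genes 5 had 9 gained regions between them, a share above that value and near the 6 of 29 of thermogenic genes. Of 9 preadipocyte markers only Cd34 had any, and of 5 endothelial markers only Cldn5 did, with 1 region 71903 bp away. The 7 macrophage and leukocyte, 5 skeletal muscle, 5 epithelial and mesothelial and 4 Schwann cell markers had 0. A gene needs a region held by all day 9 lists to have a gained one. No muscle or Schwann cell marker had such a region, so their 0 was given in advance. Of the leukocyte markers 2 of 7 had one, of the epithelial and mesothelial markers 2 of 5, and of the preadipocyte and stromal genes 21 of 24.

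The question the days in between address is when each genotype gains these regions. At day 3 the 3 WT libraries had a peak in 38.8%, 40.9% and 21.2% of them, a mean of 33.7% ± 10.8 (SD, n = 3), and the 3 DKO libraries in 17.5%, 28.8% and 20.2%, a mean of 22.2% ± 5.91. The lowest WT library, replicate 3, is the shallow one, and it overlapped the DKO libraries. The difference of 11.5 percentage points had p = 0.2 in an exact permutation test (two-sided, 20 relabellings, smallest p 0.1), and was 17.7 without that library. At day 6 the WT libraries held 82.4%, 81.0% and 85.5% (mean 83.0% ± 2.28) and the DKO libraries 68.7%, 68.8% and 45.0% (mean 60.8% ± 13.7). Every WT library was above every DKO library at day 6, by 22.1 points on average and with the smallest p the exact test allows, 0.1. Over both days the mean difference was 16.8 points, with an exact permutation p of 0.01 (400 relabellings) and 0.07 after adjustment over the 7 comparisons made between libraries. This test relabels each day on its own and so takes the libraries of both days as unrelated. The labels do not say whether same-numbered libraries of different days share a culture. If they did, 20 joint relabellings would remain, with a smallest p of 0.1. Without replicate 3 of DKO day 6, the list with the fewest peaks, the day 6 difference was 14.2 points. The difference at day 6 was not shown to exceed that at day 3 (10.7 points, exact permutation p = 0.52).

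The DKO lists of day 6 were also shorter as a whole, with 47448 to 74867 peaks against 98503 to 105511 in WT. At day 3 the genotypes overlapped in number of peaks only through the shallow WT replicate 3, with 68629. The other WT lists of that day had 91567 and 95852, and the DKO lists 64777 to 82585. In regions held by all 24 libraries the median fold at day 6 was 13.1 to 14.4 in WT and 7.97 to 10.7 in DKO. At day 3 it was 10.9 to 12.8 in WT and 9.37 to 11.1 in DKO. Marker genes of several cell types had less of their length under day 6 peaks in DKO. For the 10 fat cell markers this was 80.2 to 86.1 kb in WT against 49.3 to 75.5 kb in DKO, for the 13 brown or beige markers 35.1 to 37.3 kb against 11.9 to 24.015 kb, for the 9 preadipocyte markers 48.3 to 50.4 kb against 18.3 to 26.3 kb, and for the 5 endothelial markers 3.78 to 3.96 kb against 1.17 to 2.38 kb. Their part in the result was not tested. When every library was cut to its 47000 peaks of lowest q and the gained regions chosen anew (1710 regions), WT libraries held 83.2% to 86.0% of them at day 6 and DKO libraries 76.4% to 82.6%. The libraries still did not overlap, but the difference was 4.07 points (exact permutation p = 0.1), and the mean over both days was 5.78 points (exact permutation p = 0.02).

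**Figure D1:**
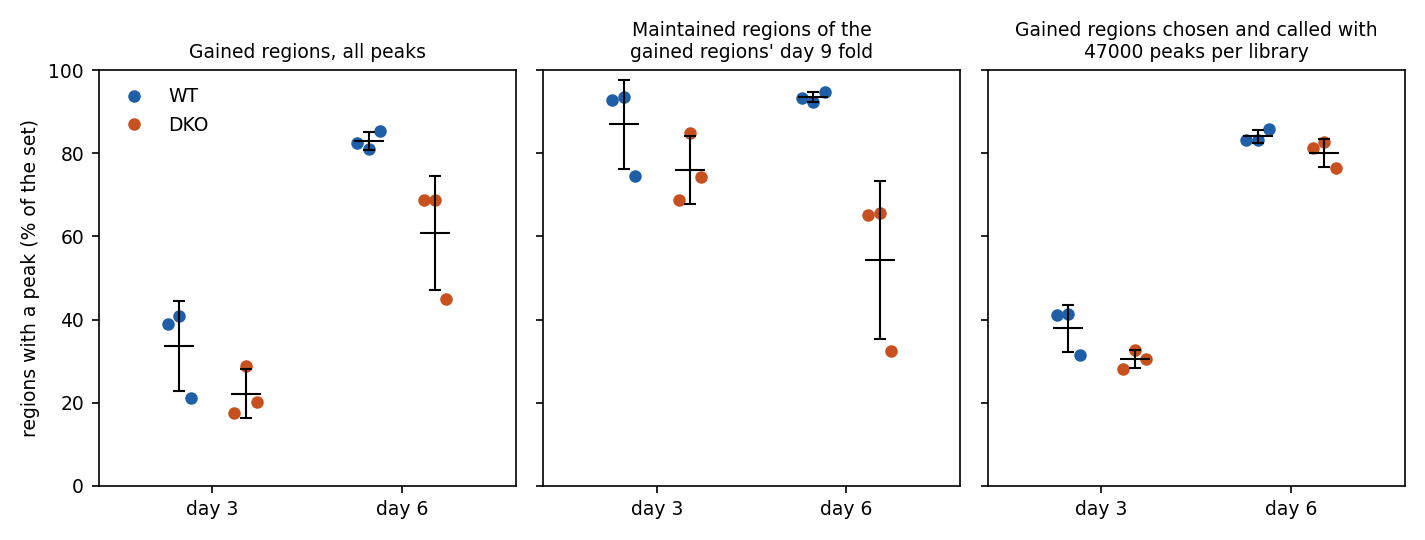
Share of regions with a peak in each library of days 3 and 6 (y axis, percent; each point a library, bars the mean and SD of 3). The left panel shows the gained regions, with WT above DKO in every library at day 6. The middle panel shows maintained regions of like day 9 fold, and the right panel gained regions with 47000 peaks per library, where the day 6 difference is 4.07 points.

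Maintained regions gave the comparison with the rest of the genome. At day 6 WT libraries held 97.0% to 97.8% of them and DKO libraries 71.4% to 86.7%. The genotypes differed by 6.18 points more in gained than in maintained regions at day 6, and by 7.14 points more at day 3, with exact permutation p = 0.1 and p = 0.2. Maintained regions are stronger, however, and among regions of like strength the order at day 6 turned. Of 2150 gained and 5421 maintained regions with a day 9 fold from 5.18 to 7.42, DKO libraries of day 6 held 68.8%, 68.9% and 40.3% of the gained and 65.0%, 65.5% and 32.3% of the maintained ones, whereas WT libraries held 81.5% to 85.6% and 92.4% to 94.9%. The genotypes differed by 15.04 points less in gained than in maintained regions of that strength (exact permutation p = 0.1, the smallest possible). At day 3 the corresponding difference was 0.702 points the other way (exact permutation p = 0.7). The lower share in DKO was thus not particular to gained regions.

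The stronger a region was at day 9, the more libraries held it before. Of the 1076 gained regions with the highest day 9 fold, WT libraries of day 6 held 94.1% to 97.4% and DKO libraries 80.9% to 93.8%. Of the 1076 with the lowest fold they held 66.9% to 73.3% and 18.3% to 44.0%. At day 3 the shares were 27.04% to 46.5% and 25.1% to 36.6% for the strongest, and 16.3% to 38.3% and 12.1% to 23.0% for the weakest. By place, the gained regions between genes were held most often at day 3, by 38.1% ± 11.1 in WT and 25.5% ± 6.45 in DKO, and those at promoters by 30.9% ± 10.8 and 18.3% ± 4.98 (n = 3 each). At day 6 the promoters stood at 75.6% ± 3.12 in WT and 58.8% ± 12.47 in DKO.

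A genotype was taken to hold a region from the first day on which at least 2 of its 3 libraries had a peak there. WT held 1453 gained regions (33.8%) from day 3, 2248 (52.3%) from day 6 and 601 (13.97%) from day 9. DKO held 873 (20.3%) from day 3, 2069 (48.1%) from day 6 and 1360 (31.6%) from day 9. The genotypes held 2837 regions (65.9%) from the same day, of which 1594 from day 6, 770 from day 3 and 473 from day 9. WT was earlier in 1244 regions (28.9%) and DKO in 221 (5.14%). Over all 35397 regions held by 6 of 6 day 9 lists, gained ones included, WT was earlier in 15.7% and DKO in 1.98%, a background made up mostly of the 23471 maintained regions, where the shares were 7.26% and 0.852%. Among the 7624 regions that were neither gained nor maintained WT was earlier in 34.3% and DKO in 3.66%, so an earlier WT call was not particular to gained regions. Complete separation was rarer. At day 3, 90 gained regions (2.09%) were held by 3 of 3 WT and 0 of 3 DKO libraries, against 1.61% of the 35397, and 4 by the reverse, against 0.0622%. At day 6 the numbers were 335 (7.79%, against 7.62%) and 6 (0.139%, against 0.017%). The day 6 share of WT-only regions was thus near its background.

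**Figure D2:**
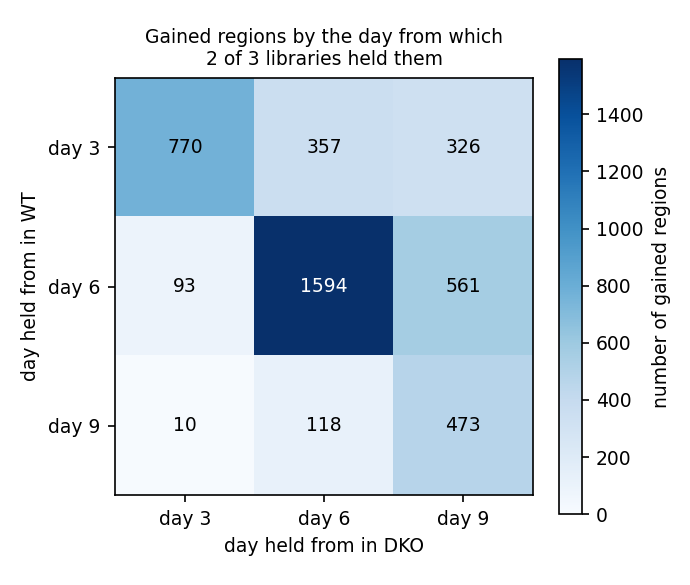
Number of gained regions by the day from which at least 2 of 3 libraries held them, WT in rows and DKO in columns. The largest cell is day 6 in both genotypes (1594), and regions that WT held first (357, 326 and 561) lie above the diagonal.

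Regions held only at day 9 were the narrowest and weakest, and part of the width comes with the rule, since a merged region spans the peaks of all its libraries. The 770 regions that both genotypes held from day 3 had a median width of 1194 bp and a median day 9 fold of 6.59, the 1594 held by both from day 6 had 1069 bp and 6.76, and the 473 held only at day 9 had 693 bp and 5.16. The C/EBP motif was found in 30.3%, 25.3% and 19.2% of these. The AP-1 motif was found in 20.1%, 13.7% and 17.3%. Promoters made up 5.32%, 6.46% and 11.6%. A total of 211 regions had a peak in 12 of 12 libraries of days 3 and 6, with a median fold of 8.26, and 136 in 0 of 12. A region held at day 3 was not always kept: in DKO 263 regions and in WT 73 were held at day 3 but not at day 6.

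Among the early regions, Zbtb16 led. Its strongest region, chr9:48719359-48725155, the first window printed above, had a fold at day 3 of 15.4, 13.2 and 15.1 in WT and 19.0, 22.1 and 16.2 in DKO. By day 9 it stood at 22.1, 19.3 and 25.4 in WT and 31.8, 22.0 and 31.8 in DKO. The DKO libraries were above the WT libraries at day 3 and overlapped them at day 9 (log2 difference 0.25 ± 0.16 SE, adjusted p = 0.339, limma). Of the 31 gained regions of the gene, WT libraries held 15 to 20 at day 3 and 28 or 29 at day 6, and DKO libraries 12 to 17 and 16 to 24. WT held 11 of them first and DKO 0. Cxcl13, a chemokine gene, was gained as early, with 8 to 10 of its 10 regions held at day 3 in WT and 8 in each DKO library. Its strongest region had a day 3 fold of 19.96, 16.8 and 15.9 in WT and 7.89, 11.6 and 8.24 in DKO, with no overlap.

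At Fkbp5 and Ror1 the libraries of day 6 separated by genotype, as they did over all gained regions (81.0% to 85.5% in WT and 45.0% to 68.8% in DKO). The gained regions of Fkbp5 and Ror1 had median day 9 folds of 5.22 and 5.73, and the part of strength was not tested. Of the 12 regions of Fkbp5, WT libraries held 9, 9 and 11 at day 6 and DKO libraries 3, 6 and 2. Of the 11 regions of Ror1, WT libraries held 9, 9 and 10 and DKO libraries 5, 3 and 1, although DKO libraries had held 6 to 9 at day 3. The 10 glucocorticoid targets with gained regions, which include Zbtb16 and Fkbp5, had 65 of them, of which WT libraries held 58 to 61 at day 6 and DKO libraries 30 to 47.

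The other genes with many gained regions lay between these courses. Of the 14 regions around Arl4a, WT libraries held 1 to 3 at day 3 and 14 at day 6, and DKO libraries 0 to 3 and then 12, 12 and 9. Of the 12 in Nfia, both genotypes had some at day 3 (4 to 8 in WT, 3 to 8 in DKO), and at day 6 WT libraries held 12 and DKO libraries 12, 11 and 7. Bmper, a modulator of BMP signalling, was early, with 8 to 10 of its 10 regions at day 3 in WT and 7 or 8 in DKO. Of the 15 regions in Dlc1, WT libraries held 12 or 13 at day 6 and DKO libraries 12, 9 and 6.

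Fat cell markers were gained in between. The Cidec promoter region, chr6:113431479-113435890, had no peak in any of the 6 day 3 libraries. At day 6 its fold was 11.8, 12.9 and 13.4 in WT and 10.04, 11.5 and 8.96 in DKO, and at day 9 it was 11.6, 12.8 and 14.7 in WT and 20.5, 19.99 and 19.5 in DKO. Before centring the DKO libraries were the lower at day 6 and the higher at day 9, without overlap on either day. After centring the day 6 difference was 0.16 (adjusted p = 0.586, limma), and at day 9 the DKO libraries were higher (log2 difference 0.52 ± 0.16 SE, adjusted p = 0.0364, limma). Adipoq, which encodes adiponectin, also had no peak at day 3. Its fold at day 6 overlapped, at 9.48, 10.2 and 9.33 in WT and 10.2, 12.5 and 8.68 in DKO, and at day 9 it was 9.73, 10.7 and 11.1 in WT and 17.6, 11.7 and 14.6 in DKO (adjusted p = 0.208, limma). The intron of Pparg at chr6:115424729-115426862 was held by 3 of 3 WT libraries at day 3, at 5.82, 5.38 and 6.47, and by 1 of 3 DKO libraries, at 4.81. Its day 9 fold was 10.4, 9.61 and 10.9 in WT and 10.9, 7.96 and 13.5 in DKO, which overlap. Of the 28 gained regions of the 9 fat cell markers, WT libraries held 26 or 27 at day 6 and DKO libraries 26 or 27, so that here the libraries did not separate, while at day 3 they held 11 to 16 and 8 to 12, which overlap. The 28 regions had a median day 9 fold of 8.23, against 6.08 over all gained regions, and the part of strength was not tested.

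Further genes of lipid storage and use showed both early and late gain. Plin1 had its strongest gained region at the promoter, 741 bp from a start, with a day 3 fold of 4.88, 4.48 and 6.09 in WT and 5.46 and 7.16 in 2 of 3 DKO libraries. At day 6 this region stood at 18.1, 17.1 and 16.6 in WT and 11.4, 16.7 and 16.2 in DKO, and at day 9 the genotypes overlapped (adjusted p = 0.996, limma). The strongest Lpl region, 31798 bp from a start, was held by all 6 libraries at day 3, at 7.67, 6.05 and 5.34 in WT and 5.62, 7.21 and 9.92 in DKO. At the fatty acid transporter gene Cd36, 3 of 3 WT libraries (6.11, 6.47 and 6.36) and 0 of 3 DKO libraries held the strongest region at day 3, and by day 9 the genotypes overlapped, at 10.9, 10.9 and 6.90 in WT and 13.8, 11.9 and 10.5 in DKO. Abhd5, the coactivator of triglyceride lipase, had the same calls at day 3, with 4.56, 5.98 and 4.75 in WT and no DKO peak. The intron of Pde4d, a cAMP phosphodiesterase gene, was held by 3 of 3 WT and 0 of 3 DKO libraries at day 3 (4.28, 3.41 and 4.21) and again at day 6 (3.93, 6.23 and 3.97). At day 9 it was nonetheless the stronger in DKO, at 11.2, 12.9 and 12.1 against 5.96, 6.34 and 5.86 in WT (log2 difference 0.90 ± 0.19 SE, adjusted p = 0.00438, limma). At Mlxipl, which encodes the carbohydrate response factor ChREBP, the strongest region was first held by both genotypes at day 6 and at day 9 had 10.3, 9.62 and 13.1 in WT and 16.7, 19.9 and 25.1 in DKO (log2 difference 0.80 ± 0.18 SE, adjusted p = 0.00756, limma).

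In most other metabolic groups 2 of 3 DKO libraries lay within or near the WT range at day 6. Of the 37 gained regions at synthesis genes, WT libraries held 31 to 35 and DKO libraries 31, 35 and 28. Of the 19 at oxidation genes, WT libraries held 16 or 17 and DKO libraries 18, 17 and 9. Of the 31 at lipolysis and adrenergic genes, the numbers were 27 or 28 and 26, 27 and 22, of the 16 at lipid droplet genes 15 or 16 and 14, 15 and 11, and of the 23 at uptake and binding genes 19 or 20 and 21, 19 and 18. In 3 lists the genotypes separated, as they did over all gained regions (81.0% to 85.5% in WT and 45.0% to 68.8% in DKO). Adipokines and secreted factors had 20 to 23 of 25 in WT and 17, 16 and 11 in DKO. Insulin signalling had 49 to 52 of 59 in WT and 44, 46 and 30 in DKO, and the adipogenic factors 89 or 90 of 96 in WT and 79, 75 and 53 in DKO. Their median day 9 folds were 5.97, 6.47 and 6.79, against 6.35 (oxidation) to 6.96 (lipolysis) for the lists above. The part of strength was not tested. Of the 17 at cAMP targets, WT libraries held 14 to 16 and DKO libraries 14, 13 and 12, and of the 8 at respiratory genes 6 or 7 and 7, 7 and 5. No list was tested on its own.

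**Figure D3:**
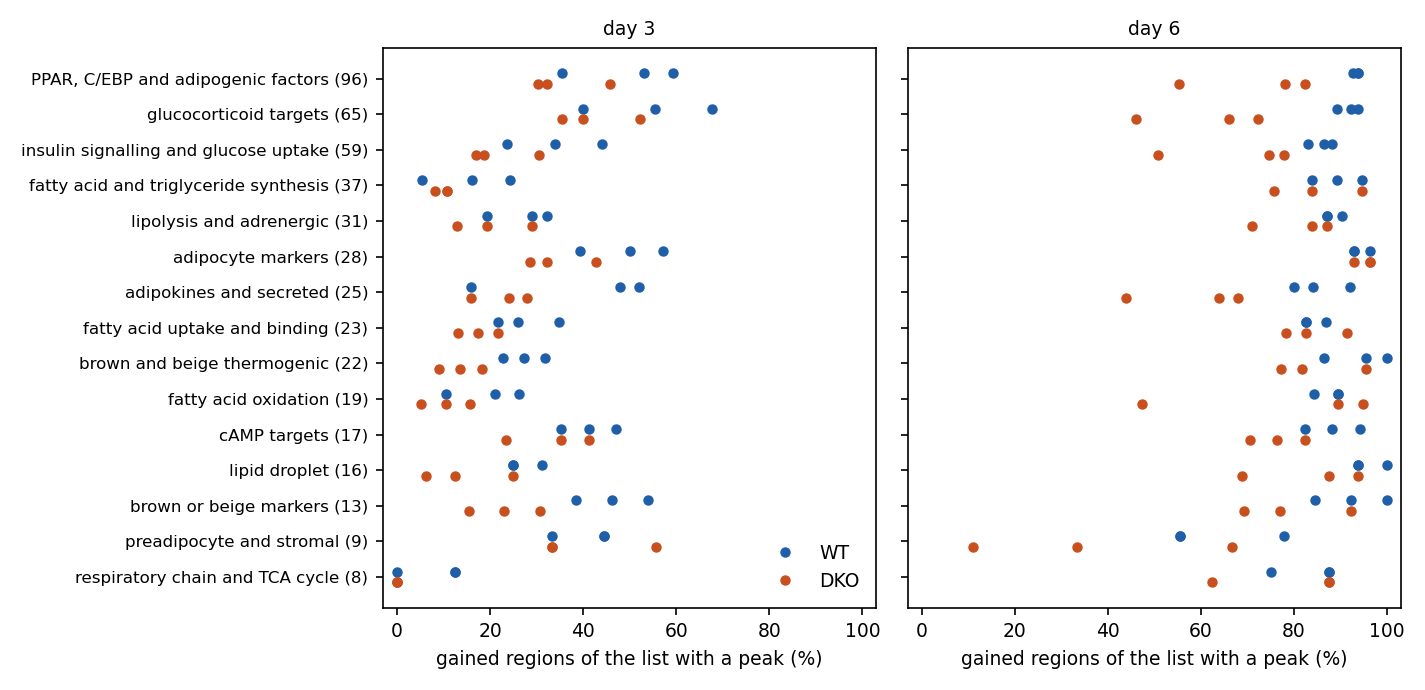
Share of a list's gained regions with a peak in each library (x axis, percent) at day 3 and day 6, for lists with at least 8 gained regions (number in brackets), each point a library. Fat cell markers lie together at day 6, with 26 or 27 of 28 held in every library, and glucocorticoid targets lie apart, at 58 to 61 of 65 in WT and 30 to 47 in DKO. Over all gained regions the libraries also lie apart at day 6, at 81.0% to 85.5% in WT and 45.0% to 68.8% in DKO. The median day 9 fold was 8.23 for the marker regions and 6.32 for the glucocorticoid targets, and the part of strength was not tested.

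Thermogenic genes gained most of their regions between days 3 and 6. Of their 22 regions, WT libraries held 5 to 7 at day 3 and 19 to 22 at day 6, and DKO libraries 2 to 4 and 17 to 21. Such a rise was not particular to them. Over all gained regions the mean share held went from 33.7% to 83.0% in WT and from 22.2% to 60.8% in DKO. The strongest region of Ppargc1a, chr5:51824871-51826417, lies 272265 bp from a start of the gene. Its fold at day 6 was 12.7, 11.4 and 10.4 in WT and 10.3, 15.4 and 9.01 in DKO, which overlap. At day 9 it was 13.9, 12.9 and 12.3 in WT and 8.91, 6.71 and 7.79 in DKO, lower in every DKO library (log2 difference -0.84 ± 0.19 SE, adjusted p = 0.0061, limma). The strongest of the 7 gained regions of Ppargc1b, the related coactivator, went the other way from this strongest of the 6 of Ppargc1a. Of all 22 thermogenic regions, 1 was higher and 1 lower in DKO at day 9 at an adjusted p under 0.05 (limma). At day 9 the fold of the Ppargc1b region was 5.29, 7.10 and 5.55 in WT and 11.97, 10.5 and 10.9 in DKO (log2 difference 0.81 ± 0.19 SE, adjusted p = 0.0102, limma). At day 6 that region had 5.26, 6.16 and 6.19 in WT and 8.53, 10.7 and 6.49 in DKO (log2 difference 1.00 ± 0.20 SE, adjusted p = 0.00284, limma). The Elovl3 region at chr19:46132560-46134252, at a fatty acid elongase gene of brown fat, was held at day 6 by 1 of 3 WT and 3 of 3 DKO libraries. At day 9 it overlapped between the genotypes, at 5.88, 4.86 and 6.08 in WT and 5.05, 5.90 and 7.65 in DKO. The region of Kcnk3, a potassium channel of thermogenic fat, had 5.36, 8.02 and 10.04 in WT and 10.9, 9.83 and 9.24 in DKO at day 9 (adjusted p = 0.385, limma).

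**Figure D4:**
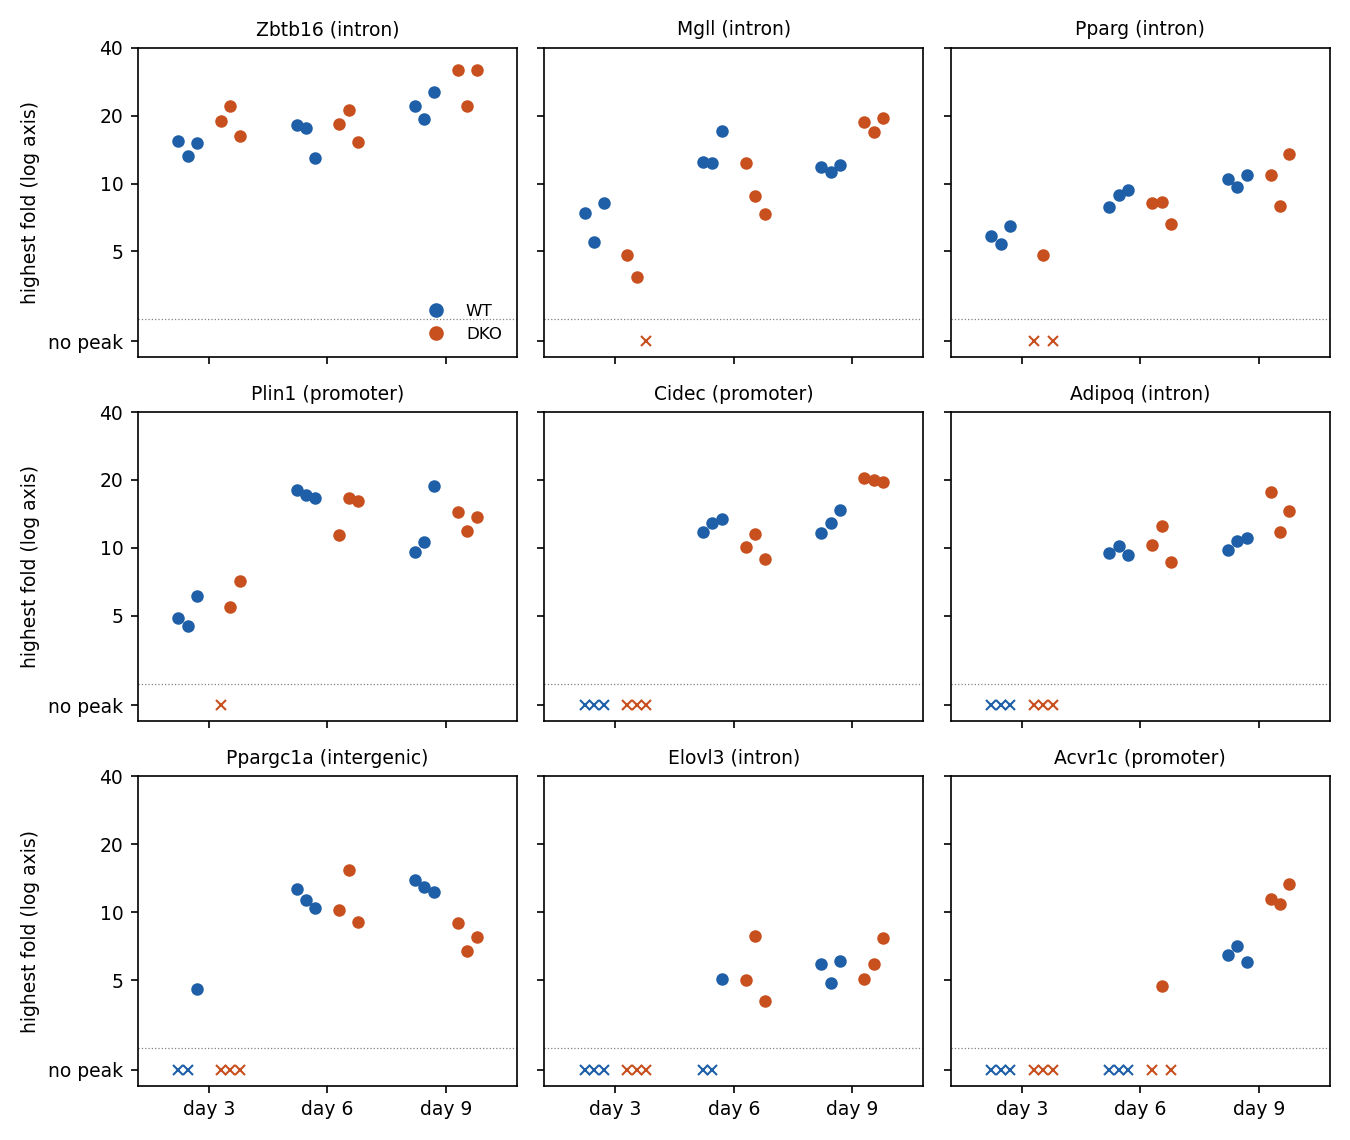
Highest fold enrichment (y axis, log scale) of the strongest gained region of 9 genes in each library of days 3, 6 and 9. Points are libraries, and crosses below the dotted line are libraries without a peak, drawn at a fixed height. Zbtb16 is held in every library from day 3, Cidec and Adipoq appear by day 6, and Acvr1c is held by 1 of 6 libraries at day 6.

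At day 9, when all libraries held every gained region, strength was compared between the genotypes. Relative to regions held by all 24 libraries, the median fold of gained regions was 0.457, 0.436 and 0.437 in WT and 0.456, 0.466 and 0.488 in DKO (means 0.443 ± 0.0118 and 0.470 ± 0.0162, SD, n = 3). The genotypes overlapped and the difference of 0.0269 had an exact permutation p of 0.2. The rule used day 9 calls, and the difference moved with it. It was 0.0197 with members chosen from the WT libraries and -0.0202 from the DKO libraries. With 5 of 6 day 9 and at most 1 of 6 day 0 lists it was 0.00358. Region by region, with log2 fold centred on each library's median and fitted with limma over all 35397 regions, 341 gained regions were higher in DKO and 79 lower at an adjusted p under 0.05. That is 7.93% and 1.84% of them, against 4.39% higher and 4.26% lower over all 35397. These counts were not taken under other membership rules. The median difference of gained regions was 0.09 on the log2 scale, and that of all regions -0.02. Without centring, DKO libraries were higher by a median of 0.08 over all regions, and the gained regions split into 489 higher and 49 lower. With reads at the summit in place of fold 122 were higher and 10 lower. Markers of fat cells moved with this. At day 9 peaks covered 55.4 to 65.0 kb of the 10 marker genes in WT against 88.05 to 93.0 kb in DKO. They were not alone. Brown or beige markers had 23.9 to 31.65 kb (WT) against 39.4 to 46.3 kb (DKO). Leukocyte and skeletal muscle markers were also higher in DKO without overlap. Preadipocyte, endothelial, Schwann cell, and epithelial and mesothelial markers overlapped. All peaks together covered 48.2 to 59.6 Mb (WT) against 61.2 to 68.8 Mb (DKO). The parts of total coverage and of cell composition were not tested. In these bulk libraries more cells of a type and more acetylation per cell cannot be told apart.

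The 5 gained regions with the greatest difference upward lay at Kcnj15, Hivep1, Hadha, Arhgap26 and Kcne2. The Kcnj15 region, chr16:95244201-95246421, had a day 9 fold of 4.90, 3.85 and 4.01 in WT and 15.8, 11.3 and 11.8 in DKO (log2 difference 1.503 ± 0.21 SE, adjusted p = 0.000135, limma). It was also held at day 6 by 3 of 3 DKO and 0 of 3 WT libraries. The Hadha region, in an intron of the gene for a subunit of the mitochondrial trifunctional protein of fatty acid oxidation, had 3.10, 3.21 and 3.04 in WT and 10.1, 7.70 and 8.36 in DKO (log2 difference 1.38, adjusted p = 0.000353, limma). In the other 3, log2 differences ran from 1.36 to 1.43. Downward the greatest differences were at Fmn2, Atp6v0a1, Peli2, Clasp2 and Gm49388, between -1.29 and -1.18. The Fmn2 region, in an intron of a formin gene, had 6.80, 6.96 and 11.4 in WT and 4.18, 3.92 and 2.75 in DKO (adjusted p = 0.00148, limma). The groups did not overlap in any of these 10 regions, which comes with their choice by difference in the same libraries.

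By list, the counts at day 9 stand beside 7.93% higher and 1.84% lower over all gained regions, and no list was tested. Synthesis genes had 8 of 37 higher and 0 lower, insulin signalling 9 of 59 and 0, lipolysis 7 of 31 and 0, oxidation 5 of 19 and 0, and fat cell markers 5 of 28 and 1. Among them were the strongest regions of Gpat3, an acyltransferase of triglyceride synthesis (5.37, 10.4 and 4.44 in WT and 12.8, 10.8 and 11.5 in DKO, log2 difference 0.80, adjusted p = 0.0295, limma), and of Mgll, the monoglyceride lipase (11.8, 11.2 and 12.1 in WT and 18.7, 16.95 and 19.5 in DKO, log2 difference 0.55, adjusted p = 0.0333, limma). Acsl1, an acyl-CoA synthetase, had 5.93, 9.05 and 6.00 in WT and 10.7, 12.8 and 12.7 in DKO (log2 difference 0.71, adjusted p = 0.0244, limma). The adipogenic factors had 11 of 96 higher and 4 lower. Glucocorticoid targets had 0 of 65 higher and 3 lower, all 3 at Zbtb16, which holds 31 of the 65, and their median difference was 0.04. Thermogenic genes had 1 of 22 higher and 1 lower, brown or beige markers 0 of 13 and 1, and preadipocyte and stromal genes 0 of 9 in either direction.

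**Figure D5:**
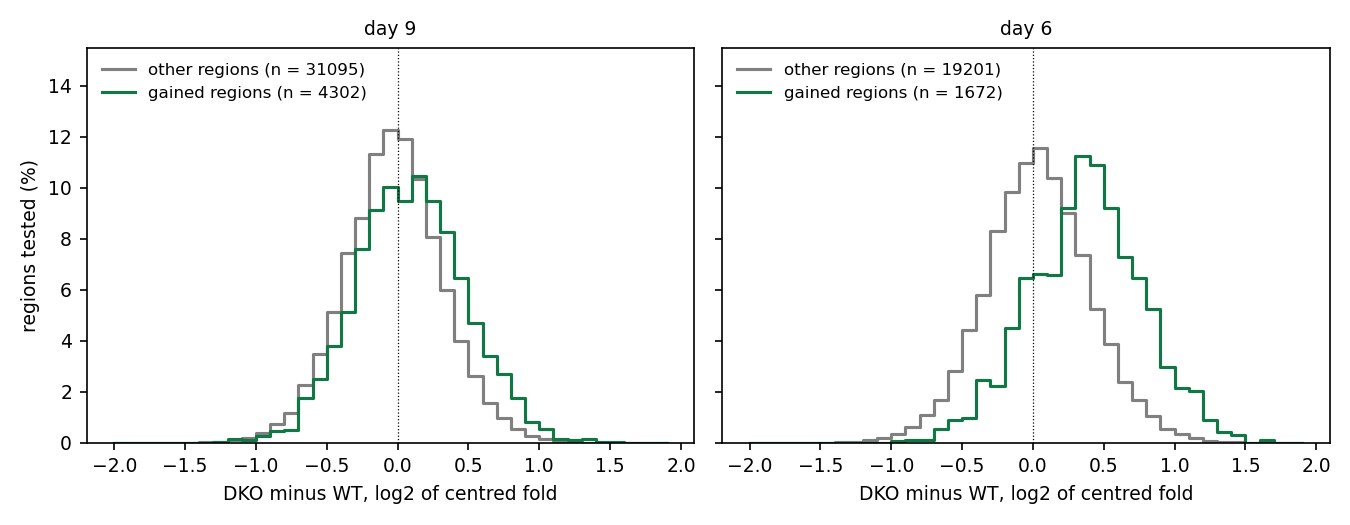
Distribution of the difference DKO minus WT in log2 centred fold (x axis, bins of 0.1) over the gained regions and all other regions tested (y axis, percent of the set), at day 9 and, for regions held in 6 of 6 day 6 libraries, at day 6. Gained regions lie to the right of the others, with medians of 0.09 at day 9 and 0.38 at day 6. Without centring the day 6 median is -0.10.

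At day 6 the same fit could take 1672 gained regions, those held in 6 of 6 libraries of that day. After centring, 428 were higher in DKO and 12 lower (25.6% and 0.718%), against 8.41% and 4.73% of the 20873 regions tested, and the median difference was 0.38, against 0.05 over all regions. This direction is relative to the other regions. Without centring the median over all regions was -0.43, that of gained regions -0.10, and 76 gained regions were higher and 199 lower. Among the 1076 gained regions strongest at day 9, of which 825 could be tested, the centred median was 0.40, and among the 1076 weakest, of which 131 could, it was 0.33. Only regions with a peak in every DKO library of day 6 enter this fit, so a weak region enters only where its DKO fold stayed high, and the 428 and 12 describe that subset, not the gained regions as a whole. Of the thermogenic genes 14 regions entered, with 6 higher, 0 lower and a centred median of 0.56. Of the brown or beige markers 6 entered, with 1 higher and 0 lower. No list was tested. The greatest centred differences upward were at Ndc1, Pdzd2, Ly86, Fam214a and Syne2, from 1.43 to 1.64, and downward at Cacna1d, Serpina3j, Adamts12, Sdk1 and Irf2, from -0.90 to -0.75. The Cacna1d intron, in a calcium channel gene, had a fold of 16.1, 11.0 and 19.8 in WT and 6.16, 5.77 and 5.53 in DKO at day 6 (adjusted p = 0.00734, limma), and overlapped at day 9. At Mpc1, a subunit of the mitochondrial pyruvate carrier, the day 6 fold was 6.98, 8.21 and 10.6 in WT and 16.6, 16.4 and 11.3 in DKO (log2 difference 1.27 ± 0.18 SE, adjusted p = 0.00034, limma), with every DKO library above every WT library before centring too.

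Regions held only at day 9 closed the course. The Acvr1c promoter, chr2:58323492-58325129, had no peak at day 3, and at day 6 a peak in 1 of 3 DKO and 0 of 3 WT libraries. At day 9 its fold was 6.45, 7.06 and 6.02 in WT and 11.5, 10.8 and 13.3 in DKO, without overlap (log2 difference 0.77 ± 0.19 SE, adjusted p = 0.0128, limma). The other two strongest of this class lay in introns of Fto and Lypd6b, where the genotypes overlapped at day 9. Of the regions WT held first, those of Capn9 and Cobll1 were among the 3 strongest, with day 9 medians of 16.1 and 14.3. At the Capn9 region, which lies 9565 bp from a start of a calpain gene, WT libraries had 5.66 and 5.64 at day 3 and no peak in the shallow replicate 3, and the DKO libraries had none. At day 9 it had 8.03, 17.3 and 15.9 in WT and 15.3, 16.3 and 18.8 in DKO. The region between Jagn1 and Cidec, held at day 3 by 1 WT library (4.38) and 2 DKO libraries (5.61 and 5.19), led those that DKO held first.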

How the data were processed

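H3K27ac ChIP-seq was analysed in 24 libraries, 3 for each of 2 genotypes on days 0, 3, 6 and 9, grouped by GEO's labels. The 16 input libraries were not used here. According to the study's methods and the submitters' processing notes, the authors trimmed reads (cutadapt 1.18), aligned them to mm10 with BWA and called narrow peaks in each library with MACS2 2.1.1.20160309, without pooling replicates. Which input served as control is not given in the sources used here. The deposited lists give for each peak a fold enrichment (a ratio of reads at the summit to local background) and −log10 p and q values, and the summit as an offset in bp. Total reads are not part of the lists. From the authors' fold and −log10 p, whole reads at the summit and the background were recovered for 100% of peaks (tolerance 0.1 read), which ranks libraries by depth. Median summit heights of 13 to 28 reads limit precision.

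Peaks overlapping by 1 bp were joined, and regions were placed by the summit of their strongest day 9 peak with GENCODE M21 and GRCm38 sequence. A promoter was within 1 kb of a transcript start. No peak ended beyond its chromosome. Genotypes were compared with exact permutation tests on 1 value per library, and, over all regions held in 6 of 6 libraries of a day, with limma 3.58.1 (R 4.3.3, trend, Benjamini-Hochberg, threshold 0.05) on log2 of the highest fold, centred on the library's median. Both were tested on simulated data. The members, gene lists and tests were chosen with earlier results of these data known. Genes named were the 10 with most gained regions, up to 4 per list by number of gained regions, up to 5 regions per direction with the largest tested difference, and the 3 strongest regions of each class of gain. Slc2a4 and Pex5, the region printed for its motif, were added after values were seen, and some genes that met these rules are not reported here. Alternatives were other peak minimums, numbers and widths, other membership rules, leaving out replicates, a replicate block, other centring and other region values.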

Additional observations from a re-analysis of the deposited data

How the results depend on the processing

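The lower share of gained regions held by DKO at days 3 and 6 kept its direction under every alternative run. Its test over both days had an unadjusted p under 0.05 except without a replicate number. There the difference was -19.1 to -14.9 points and the exact permutation p 0.0556 to 0.111. With so few libraries 0.0556 is the smallest p that test can give, so it could not pass 0.05. Leaving out a single library of days 3 or 6 (WT day 3 replicate 3, or DKO day 6 replicate 3, the latter chosen after seeing the data) gave -19.9 and -12.9 points, both past 0.05. Blocking by replicate number left the difference of -16.8 points and gave an exact permutation p of 0.0313 over both days, and at day 9 342 gained regions higher and 74 lower, at day 6 439 and 13. Within days 6 and 9, centred deviations of same-numbered WT and DKO libraries correlated by -0.00678 to 0.0277. Centring removes shifts of a whole library, and libraries of different days were not compared. These values therefore cannot decide whether same-numbered libraries share an origin. No test between libraries crossed 0.05 under the block.

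The number of gained regions was 594 with 20000 peaks per library, 1710 with 47000 (chosen after seeing the data), 7012 from WT alone, 11721 from DKO alone and 9152 with 5 of 6 day 9 and at most 1 of 6 day 0 lists. The change of the difference from day 3 to day 6 reversed to 6.51 with 20000 peaks, to 3.41 with 47000, and ranged from -19.8 to 3.77 without a replicate number, positive without replicate 3. In regions of like day 9 fold (chosen after seeing the data), gained minus maintained regions at day 6 reversed to 15.04. The relative fold at day 9 reversed to -0.0202 when members were chosen from DKO alone. The cause was not tested in any of these.

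Of gained regions at day 9, 97 to 109 were higher and 20 to 32 lower without a replicate number, where fewer libraries enter. With the mean of a region's peaks 152 were higher and 35 lower, with summit reads 122 and 10, above the median fold, where 793 were tested, 141 and 12, and without centring 49 were lower. At day 6 without a replicate number 119 to 180 were higher and 0 to 3 lower. The mean of peaks gave 195 higher, summit reads 7 lower, the regions above the median fold 45 and 2, and no centring 76 and 199. The 0 came without replicate 1, where 36 gained regions were lower at an unadjusted p under 0.05. The C/EBP share was 7.58% within 100 bp of the summit, where the window is shorter. WT day 3 replicate 3 had the fewest background reads, and the part of depth in its calls was not tested.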
